A study of Mus musculus with 14 samples.

Results

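The comparison described here asked how gene expression differed after seizures in hippocampal cells that carried a silencing receptor. Its members were chosen by group label: all 3 libraries of the group DREADD Pilo were set against all 4 of the group DREADD Sham, which makes 7 of the 14 libraries of the series, and they are described across all genes. Every library came from live GFP+ cells sorted from the hippocampus of wild-type C57BL/6 mice at day 14, and the submitters call these adult-born granule cells. Cells in both groups carried a DREADD with GFP, named Hm4di in the count table, and both groups received clozapine-N-oxide (CNO), the ligand of this receptor. DREADD Pilo mice were injected with scopolamine methyl nitrate and terbutaline (2 mg/kg each), 30 minutes later with the muscarinic agonist pilocarpine (300 mg/kg), and status epilepticus was stopped after 3 hours with diazepam (10 mg/kg). DREADD Sham mice are labelled as having had no seizures, and the sources used here do not give what the sham treatment held, which promoter drove the receptor, or the dose and timing of CNO. About 800 to 1000 cells per library went directly into SMART-Seq v4 cDNA synthesis. The other 7 libraries carry CAG-GFP in place of the DREADD, 4 from pilocarpine-treated and 3 from sham mice, also with CNO.

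Adult-born granule cells arise from stem cells of the dentate gyrus, pass through a neuroblast stage marked by doublecortin and Neurod1, and become excitatory granule neurons that keep the transcription factor Prox1. The hM4Di DREADD is an engineered muscarinic receptor that, once bound by CNO, couples to Gi proteins, opens GIRK potassium channels and lowers transmitter release. Pilocarpine-induced status epilepticus is widely used to study how seizures alter the birth, migration and wiring of these neurons.

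The DREADD libraries held 12562178 to 33210468 counts and 14512 to 18844 detected genes. DREADD Sham 1 and 2 had under 1% of their counts in pseudogenes, whereas the other 5 DREADD libraries had 4.33% to 8.12%. These are called library set 1 and set 2; the sources used here do not give what made them differ, and set 1 of the DREADD libraries held sham cells only. Correlations of log2 CPM (counts scaled to a common library size with TMM factors) were 0.796 between DREADD Sham 1 and 2, 0.694 between DREADD Sham 3 and 4, and 0.501 to 0.532 across the 2 sets of sham libraries. DREADD Pilo 3 stood apart from its group: 25.8% of its counts were mitochondrial, against 2.58% and 4.5% in DREADD Pilo 1 and 2, and it correlated with them at 0.594 and 0.595, against 0.773 between those. Many of the results are therefore also given within set 2 (3 DREADD Pilo against 2 DREADD Sham libraries) or without DREADD Pilo 3, but not all. The labels do not tie the libraries to separate animals, and the p-values then measure the spread between libraries, which may be technical.

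The cell label was checked against its markers. Prox1 stood at 53, 80.8 and 0 CPM in DREADD Pilo 1 to 3 and at 30.9, 79.3, 198 and 85.6 CPM in DREADD Sham 1 to 4. Dcx, which encodes doublecortin, stood at 30.3, 92.2 and 0 CPM and at 21.6, 30.8, 271 and 137 CPM. Both genes were thus detected in 6 of the 7 libraries and had no count in DREADD Pilo 3. Summed markers of mature granule cells were 1120, 591 and 255 CPM in DREADD Pilo and 2068, 2665, 407 and 411 CPM in DREADD Sham. Summed oligodendrocyte markers were higher in every library, at 20089, 46608 and 566 CPM and at 21200 to 41915 CPM. Such sums do not give cell numbers, and the 2 genes do not show that the libraries held granule cells only. The seizure label has no gene of its own to check it, and mouse Chrm4, whose human counterpart the receptor was derived from, reached only 0.180 CPM and says nothing of the transgene.

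No gene passed the test. Of 18676 genes, 0 had an adjusted p under 0.05 by edgeR's quasi-likelihood test with Benjamini-Hochberg adjustment (0.0% called), and the smallest adjusted p was 0.954. At an unadjusted p under 0.05 there were 967 genes (5.18%), 626 higher (3.35%) and 341 lower (1.83%) in DREADD Pilo. The biological coefficient of variation was 1.57 in DREADD Sham and 1.18 in DREADD Pilo. DESeq2 placed 158 of 17802 genes past 0.05 (0.888%), 88 higher and 70 lower, limma voom placed 0, and an edgeR fit with the library set as a covariate placed 2 higher and 0 lower. Those 2 were Sec61g and Rpl24, named after their values were seen: Sec61g, a subunit of the protein translocation channel, stood at 6.58 to 8.18 CPM in DREADD Pilo, at 80.5 and 99.0 CPM in DREADD Sham 1 and 2, and at 0 in DREADD Sham 3 and 4. Neither gene was among the DESeq2 calls. All values of DREADD Pilo lay above all values of DREADD Sham for 819 genes (4.39%) and below them for 416 (2.23%), 1235 in all (6.61%). The median log2 fold change over all tested genes was 0.07, with 52.3% of genes positive and 47.5% negative. The values below therefore describe these libraries, and no single gene is called changed.

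Genes of neuroblasts and immature neurons stood lower in DREADD Pilo, over all libraries and within set 2. Of 25 list members 24 were tested, and 22 of them had a negative log2 fold change, with a median of -1.72. Tbr1 and Basp1 were the other 2. Summed over the list, DREADD Pilo 1 to 3 stood at 1862, 1124 and 134 CPM. DREADD Sham 1 to 4 stood at 1858, 2589, 4245 and 4116 CPM. The sums thus overlapped, with DREADD Pilo 1 just above DREADD Sham 1, but did not overlap within set 2. In 7 of the 24 every DREADD Pilo library lay below every DREADD Sham library, beside 2.23% of all genes. Within set 2 this held for 16 of the 24, beside 10.2% of all genes, with a median of -1.92 over the 23 members that the filter kept there. Without DREADD Pilo 3 the median was -1.17 and 7 of 24 lay below, beside 3.81% of all genes. The median was negative under all 17 alternative settings, from -2.76 to -1.17. In such bulk samples, fewer cells of a type and less of its RNA per cell cannot be told apart.

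Neurod1, a transcription factor of newborn granule neurons (chromosome 2, 79452521 to 79456751, GRCm38), stood at 28.2, 26.8 and 0 CPM in DREADD Pilo and at 63.1, 67.7, 216 and 284 CPM in DREADD Sham. The groups did not overlap, and the log2 fold change was -3.10 ± 1.47 (SE; 3 against 4 libraries, adjusted p = 0.956 by edgeR). It was -3.73 ± 1.78 within set 2 and -2.54 ± 1.22 without DREADD Pilo 3. Stmn1, the microtubule-destabilising protein stathmin (chromosome 4, 134468320 to 134473843), stood at 260, 265 and 10.3 CPM against 655, 739, 744 and 973 CPM. DREADD Pilo 1 and 2 sat close together well under all sham libraries, and DREADD Pilo 3 far under both, for a log2 fold change of -2.12 ± 0.85 (adjusted p = 0.954 by edgeR) and of -1.59 ± 0.63 without DREADD Pilo 3. Neurod6, a related transcription factor, was at 9.45, 0 and 0 CPM against 31.8 to 81.1 CPM. The remaining genes without overlap were Stmn2 and Dpysl3, which act on the cytoskeleton of growing neurites, the related Crmp1, and the transcription factor Bcl11b. Their means in DREADD Pilo and DREADD Sham were 42.0 ± 52.5 and 152 ± 36.4 CPM for Stmn2, 27.1 ± 29.4 and 136 ± 65.3 CPM for Dpysl3, 26.1 ± 24.8 and 102 ± 54.2 CPM for Crmp1, and 6.07 ± 7.44 and 33.8 ± 14.9 CPM for Bcl11b (SD, n = 3 and 4). These 4 genes and Neurod1 are named because their groups did not overlap, which was known only once the values were seen. Elavl2, a neuronal RNA-binding protein, was at 0.298, 0 and 0 CPM against 8.01, 15.4, 50.3 and 0.174 CPM, so that DREADD Sham 4 lay among the DREADD Pilo libraries. Dcx, Tubb3 and Sox11 overlapped between the groups but not within set 2. Tubb3, the neuronal beta-tubulin, stood at 112, 52.0 and 0 CPM against 292 and 222 CPM in DREADD Sham 3 and 4, and at 81.1 and 68.1 CPM in DREADD Sham 1 and 2. Sox11 stood at 95.7, 8.24 and 0.780 CPM against 429 and 234 CPM there, and at 37.9 and 58.1 CPM in set 1.

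**Figure D1:**
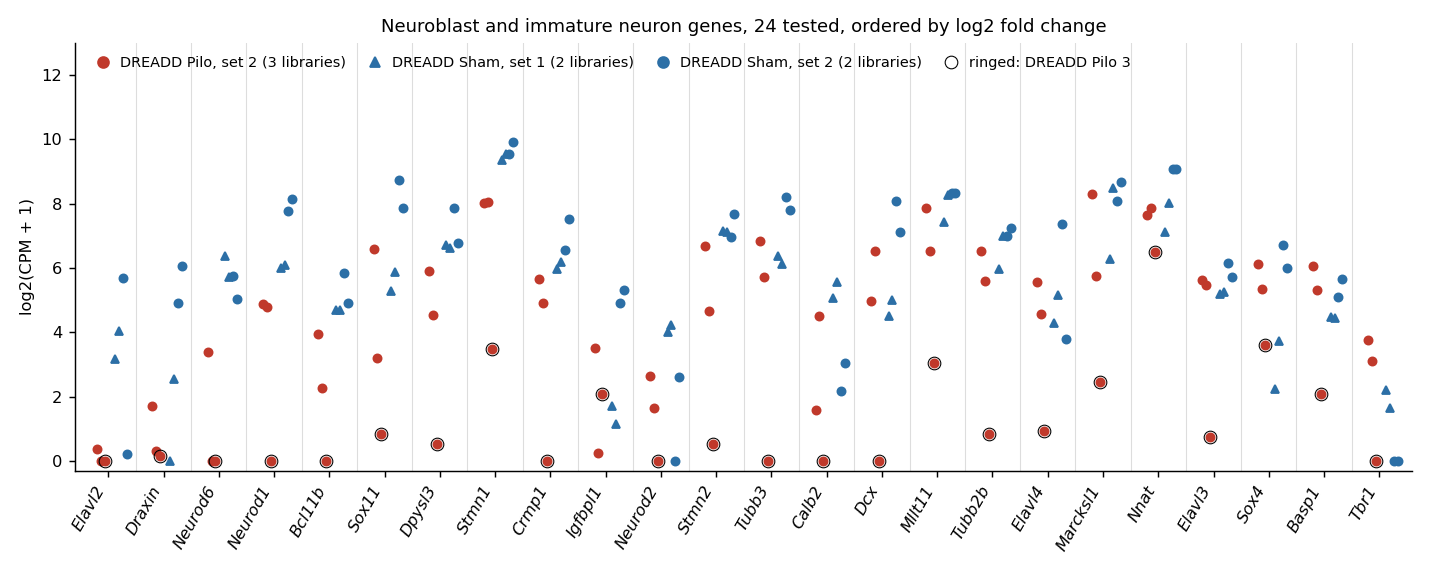
Level of the 24 tested neuroblast and immature neuron genes in each DREADD library, as log2(CPM + 1), with genes ordered by log2 fold change from most negative to most positive. Red points are the 3 DREADD Pilo libraries with DREADD Pilo 3 ringed, blue symbols the 4 DREADD Sham libraries with triangles for set 1; in 22 of the 24 genes the fold change was negative, and the ringed library was at 0 or near it in most.

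Markers of mature granule cells and genes of synapses and channels stood lower over all 7 libraries, but not within set 2. Of 25 mature granule cell markers 22 had a negative log2 fold change and the median was -1.16, whereas within set 2 the median was 1.17, with 16 of the 22 members kept there positive. Calb1, which encodes the calcium buffer calbindin, showed this split: it stood at 24.9, 9.62 and 11.1 CPM in DREADD Pilo, at 208 and 477 CPM in DREADD Sham 1 and 2, and at 7.18 and 0 CPM in DREADD Sham 3 and 4. DREADD Pilo thus lay below the set 1 sham libraries and above those of set 2, and the log2 fold change was -3.51 ± 1.69 over all and 2.12 ± 2.20 within set 2. Camk2a, a synaptic kinase, stood at 6.22, 7.76 and 2.01 CPM against 108, 42.6, 6.48 and 18.4 CPM. Rbfox3, which encodes the neuronal nuclear protein NeuN, was the 1 marker of 25 without overlap (beside 2.23% of all genes below all sham libraries), at 10.7, 0.180 and 0 CPM against 13.5, 35.4, 17.6 and 24.3 CPM. Rbfox3 is named after its values were seen. Within set 2, 2 of the 25 lay below DREADD Sham 3 and 4, beside 10.2% of all genes, and 2 lay above, beside 13.9%. Prox1, also on this list, overlapped over all libraries and was among those below within set 2.

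The same split by library set ran through the receptor and channel lists. Glutamate receptor genes had a median of -1.03 (14 of 22 negative) over all libraries and 0.24 within set 2. Voltage-gated and HCN channel genes had a median of -1.07 (27 of 34 negative) and 0.27 within set 2. Synaptic vesicle and release genes had -1.08 (20 of 26 negative) and -0.12, and genes of GABA receptors and chloride transport had -1.42 (18 of 19 negative) and -0.07. Syp, which encodes the vesicle protein synaptophysin, stood at 73.6, 50.6 and 3.79 CPM against 562, 158, 60.2 and 55.8 CPM, and Slc17a7, the vesicular glutamate transporter VGLUT1, at 8.90, 4.27 and 0 CPM against 101, 36.2, 1.81 and 4.53 CPM. In both genes the 2 set 1 libraries were the highest, and DREADD Sham 3 and 4 lay within the range of the DREADD Pilo libraries. Gabra2, a GABA-A receptor subunit, stood at 8.45, 23.3 and 1.23 CPM against 205, 82.3, 6.13 and 61.5 CPM, and Grm5, a metabotropic glutamate receptor, at 53.8, 17.4 and 0.557 CPM against 199, 58.3, 36.0 and 130 CPM. Slc12a2, the chloride importer NKCC1, was the 1 member of its list with a positive value over all libraries, at 140, 393 and 920 CPM against 109, 98.7, 251 and 113 CPM (log2 fold change 1.76 ± 0.67, adjusted p = 0.954 by edgeR). The groups overlapped, as DREADD Sham 3 lay above DREADD Pilo 1, and DREADD Pilo 3 was by far the highest. The log2 fold change of Slc12a2 was 1.47 ± 0.96 within set 2, and 0.88 at the lowest with a library left out. Of the channels, 3 of 34 members lay below all sham libraries, beside 2.23% of all genes. They include the potassium channel genes Kcnd3 and Kcnab1, named for that reason. Kcnd3 stood at 10.0, 13.6 and 4.01 CPM against 37.9, 17.6, 128 and 60.7 CPM. Kcnd2, the member with the smallest p, stood at 20.9, 4.69 and 0 CPM against 80.2, 46.5, 6.19 and 109 CPM, so DREADD Sham 3 lay among the DREADD Pilo libraries.

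**Figure D2:**
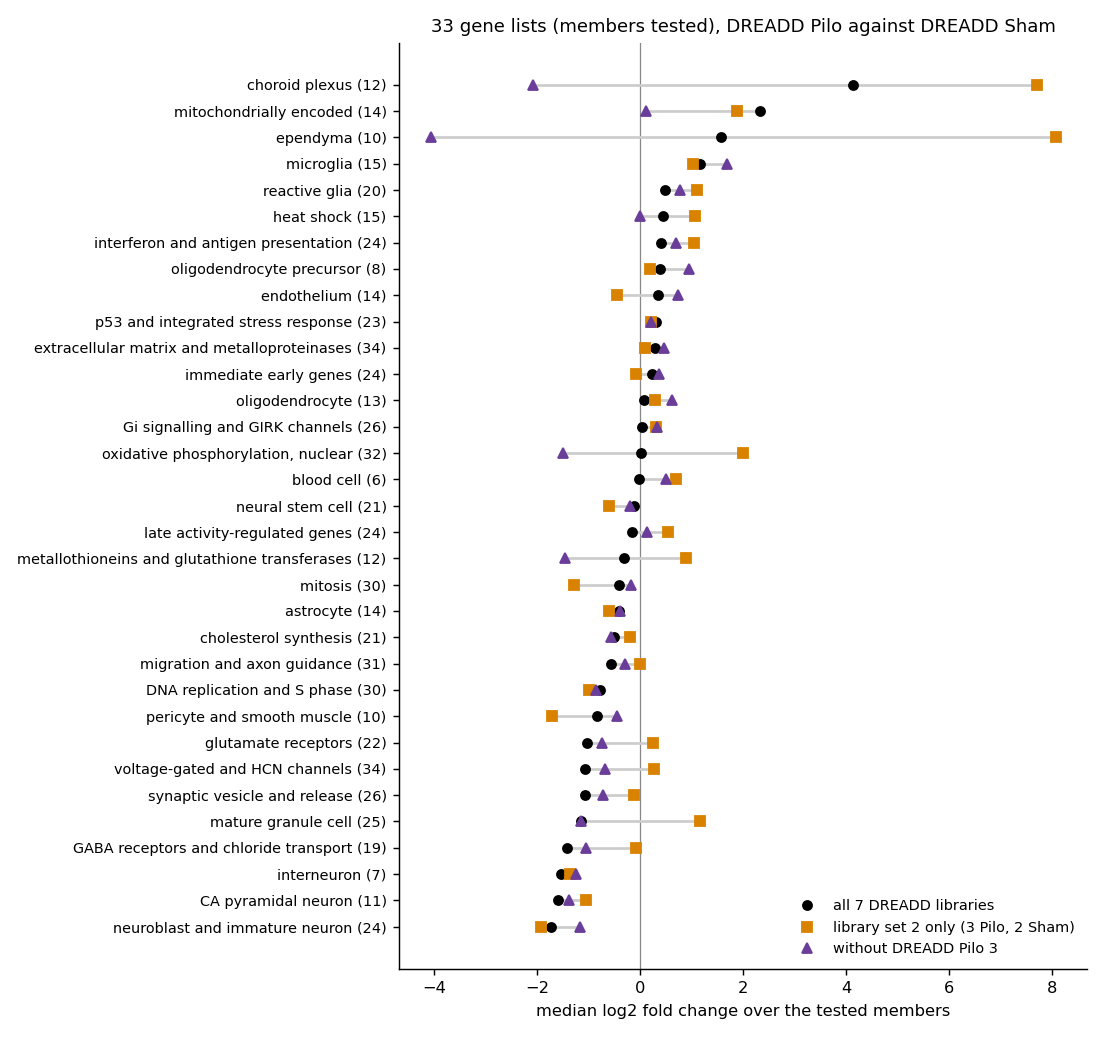
Median log2 fold change of DREADD Pilo against DREADD Sham over the tested members of 33 gene lists, computed with all 7 libraries (black), within library set 2 (orange) and without DREADD Pilo 3 (violet). The neuroblast list stays between -1.92 and -1.17, mature granule cell genes run from -1.16 to 1.17, and choroid plexus genes from -2.08 to 7.71.

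Markers of other neurons were also lower. Summed markers of CA pyramidal neurons were 56.7, 61.1 and 56.0 CPM in DREADD Pilo and 292, 183, 151 and 174 CPM in DREADD Sham, and 10 of 11 tested members were negative with a median of -1.59 (-1.05 within set 2). Summed interneuron markers were 68.4, 46.9 and 3.46 CPM against 430, 270, 129 and 166 CPM, with 6 of 7 tested members negative. Neither sum overlapped between the groups. Within set 2, however, 4 of the 9 CA pyramidal members kept there were positive, and in DREADD Sham 3 Neurod6 (52.8 CPM) and Bok (70.7 CPM) made up most of the 151 CPM. Of the interneuron members 2 of 5 were positive within set 2, with a median of -1.36. Gad1, which makes GABA, stood at 24.5, 29.0 and 2.68 CPM against 37.0, 41.0, 71.4 and 69.6 CPM, and Bok, on the CA pyramidal list, at 17.7, 18.2 and 1.56 CPM against 26.5, 28.1, 70.7 and 60.5 CPM; both are named for not overlapping. Slc32a1, Vip and Lhx6, which define interneurons, were listed at 0 in all DREADD libraries, and Neurod6 is on the neuroblast list too.

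The gene with the smallest p in the comparison was Hspa1b, an inducible 70 kDa heat shock chaperone. It stood at 1106, 413 and 158 CPM in DREADD Pilo and at 91.6, 32.2, 44.2 and 56.3 CPM in DREADD Sham. All DREADD Pilo libraries were above all sham libraries, with a log2 fold change of 3.32 ± 0.69 (unadjusted p = 0.000236, adjusted p = 0.954 by edgeR, adjusted p = 0.000517 by DESeq2). It was 3.51 ± 1.03 within set 2 and 3.73 ± 0.63 without DREADD Pilo 3. Its neighbour Hspa1a stood at 793, 390 and 60.4 CPM against 154, 64.9, 51.0 and 27.3 CPM, so DREADD Pilo 3 lay among the sham libraries, and the log2 fold change was 2.48 ± 0.78 (adjusted p = 0.954 by edgeR). The coding sequences of the 2 genes are near-identical, so how reads were shared between them is uncertain. They lie on the minus strand of chromosome 17, Hspa1b at 34956436 to 34959238 and Hspa1a at 34969190 to 34972156. The 250 bases before each start are shown because the 2 genes stood higher together; they are from RefSeq on GRCm38.p6, at chr17:34972157-34972406 for Hspa1a and chr17:34959239-34959488 for Hspa1b, 5′ to 3′ on the minus strand. Capitals mark the motif GAANNTTC, a core of the heat shock element, which reads the same on both strands.
Hspa1a: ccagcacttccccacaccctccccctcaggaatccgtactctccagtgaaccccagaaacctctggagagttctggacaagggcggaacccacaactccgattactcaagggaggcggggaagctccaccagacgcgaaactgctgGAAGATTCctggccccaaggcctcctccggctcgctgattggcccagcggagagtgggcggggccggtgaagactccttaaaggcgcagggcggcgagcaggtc
Hspa1b: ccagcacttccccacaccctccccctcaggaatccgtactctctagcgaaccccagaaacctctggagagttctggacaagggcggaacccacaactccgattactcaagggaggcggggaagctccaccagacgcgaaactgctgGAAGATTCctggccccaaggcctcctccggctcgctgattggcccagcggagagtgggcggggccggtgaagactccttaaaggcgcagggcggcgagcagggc
The 2 sequences shared 247 of 250 bases and each held 1 match, 104 to 97 bases before the start. Within the 250 bases before the start, the motif occurred in 2199 of 32851 mouse promoters (6.69%). It occurred there in 6 of the 12 heat shock list genes found among them, Hspa1a and Hspa1b included. The list was counted by gene and the 6.69% by promoter, so the 2 shares are on unlike units. A match describes the letters only.

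The rest of the heat shock list was mixed. Of its 15 members 8 were positive and 7 negative, with a median of 0.43 (1.06 with 12 of 15 positive within set 2, 0.01 without DREADD Pilo 3). Besides Hspa1b, Hsph1 and Bag3, 2 co-chaperones named for not overlapping, lay above all sham libraries, which made 3 of 15 beside 4.39% of all genes. Hsph1 stood at 183, 151 and 178 CPM against 131, 130, 119 and 69.1 CPM and Bag3 at 49.1, 23.5 and 28.2 CPM against 16.9, 5.49, 5.02 and 18.7 CPM. Hspa8, the constitutive relative, followed the library set: it stood at 104, 227 and 194 CPM in DREADD Pilo, 2647 and 2376 CPM in DREADD Sham 1 and 2, and 69.1 and 98.7 CPM in DREADD Sham 3 and 4.

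Among the other genes higher in DREADD Pilo, a rule took those with the smallest p whose groups did not overlap. Lamp2, a lysosomal membrane protein, stood at 633, 746 and 1410 CPM against 286, 235, 369 and 456 CPM (log2 fold change 1.47 ± 0.45, adjusted p = 0.954 by edgeR). Vamp8, a SNARE protein of endosomes and secretory vesicles, stood at 174, 135 and 1317 CPM against 71.8, 68.0, 81.0 and 57.6 CPM. DREADD Pilo 3 was far above the rest, and the log2 fold change was 2.96 ± 0.72 with it and 1.12 ± 0.51 without it. Tns3, a focal adhesion adaptor, stood at 125, 114 and 52.6 CPM against 5.21, 24, 6.48 and 19.2 CPM (2.83 ± 0.77, adjusted p = 0.954 by edgeR, 0.0224 by DESeq2). Wls, which carries Wnt proteins to the cell surface, stood at 129, 181 and 284 CPM against 86.1, 54.5, 15.5 and 59.7 CPM, and Mob1b, an activator of Hippo pathway kinases, at 34.4, 74.2 and 141 CPM against 13.3, 13.5, 2.57 and 12.9 CPM. Stard8 stood at 19.2, 8.06 and 12.7 CPM against 0, 0.260, 0 and 0 CPM. The groups did not overlap in any of these genes. Within set 2 the log2 fold change was 1.22 ± 0.70 for Lamp2, 3.03 ± 1.28 for Vamp8 and 2.96 ± 0.81 for Tns3. It was 2.45 ± 0.83 there for Wls and 3.48 ± 1.09 for Mob1b.

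A further 5 higher genes were almost without counts in DREADD Sham. Olr1, a scavenger receptor for oxidised lipoprotein, had 675 counts in DREADD Pilo and none in DREADD Sham, which makes it at least 549-fold higher against a floor of 3 counts over the sham group. Tmem220 had 419 and 0 counts, at least 341-fold higher. Slc19a3, a thiamine transporter, had 963 counts against 1, a ratio of 2350 with a 95% exact counting interval of 421 to 92900, and stood at 4.23, 47.9 and 9.03 CPM in DREADD Pilo. The transcription factor gene Elf4 had 379 counts against 1 (ratio 925, interval 165 to 36600) and the processed transcript BE692007 had 542 against 1 (ratio 1320, interval 236 to 52400). BE692007 stood at 12.2, 17.6 and 0.557 CPM in DREADD Pilo, so DREADD Pilo 3 held little of it. These bounds and intervals cover counting error only.

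Among the lower genes that the rule took (no overlap, a mean of 5 CPM or more, neither pseudogenes nor predicted genes), Idi1 had the smallest p. It encodes isopentenyl diphosphate isomerase of cholesterol synthesis and stood at 5.57, 2.47 and 2.45 CPM against 91.3, 347, 19.1 and 29.9 CPM. The groups did not overlap, the set 1 sham libraries were the highest, and the log2 fold change was -5.12 ± 1.34 (adjusted p = 0.954 by edgeR, 0.000905 by DESeq2) and -2.76 ± 1.01 within set 2. Dbn1, the actin-binding drebrin of dendritic spines, stood at 28.2, 14.3 and 16.1 CPM against 81.6, 147, 43.0 and 109 CPM (-2.28 ± 0.64, adjusted p = 0.954 by edgeR, 0.0116 by DESeq2). Kif5c, a neuronal kinesin, stood at 28.8, 2.23 and 22.0 CPM against 122, 98.4, 76.1 and 86.1 CPM. Its sham libraries lay within a narrow range, and so did those of Celf4, a neuronal RNA-binding protein, at 91.7, 113, 70.2 and 95.2 CPM against 33.6, 23.7 and 7.47 CPM in DREADD Pilo. Nfix, a transcription factor of neural development, stood at 39.3, 45.5 and 15.6 CPM against 89.8, 152, 136 and 88.4 CPM (-1.80 ± 0.56, adjusted p = 0.954 by edgeR, 0.0389 by DESeq2). The growth factor midkine, Mdk, stood at 11.7, 14 and 16.8 CPM against 37.2, 35.5, 48.3 and 31.0 CPM. Both sets of sham libraries lay above DREADD Pilo in each of these 6 genes, which the rule required. Within set 2 the log2 fold change was -1.91 ± 0.69 for Dbn1, -2.15 ± 1.03 for Kif5c and -1.90 ± 0.75 for Celf4. It was -1.70 ± 0.64 there for Nfix and -1.44 ± 0.69 for Mdk.

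For Npdc1 and Ica1 the size differed with the set. Npdc1, named for neural proliferation and differentiation, stood at 46.8, 54.7 and 25.7 CPM against 268, 276, 90.6 and 59.3 CPM. Ica1 stood at 7.21, 7.10 and 2.45 CPM against 95, 51.5, 17.6 and 10.7 CPM. Rnf227 stood at 16.3, 7.28 and 6.02 CPM against 50.6, 66.5, 25.1 and 101 CPM. Frmd3 and Zfp780b had no count in DREADD Pilo and 2109 and 1647 counts in DREADD Sham, at least 288-fold and at least 225-fold lower against a floor of 3 counts over the DREADD Pilo group. Frmd3 stood at 23.7, 4.64, 2.57 and 41.7 CPM in DREADD Sham 1 to 4. Zfp780b stood at 5.26, 0.0974, 48.9 and 25.8 CPM, so DREADD Sham 2 was close to the DREADD Pilo libraries. Of the 24 genes that the rule took for the smallest p without overlap, 12 were higher and 12 lower. DESeq2 called 16 of them, beside 0.888% of all genes it tested, and gave no adjusted p for 1. The rule chose these genes by their p in the same counts, so the DESeq2 calls are no separate support.

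**Figure D3:**
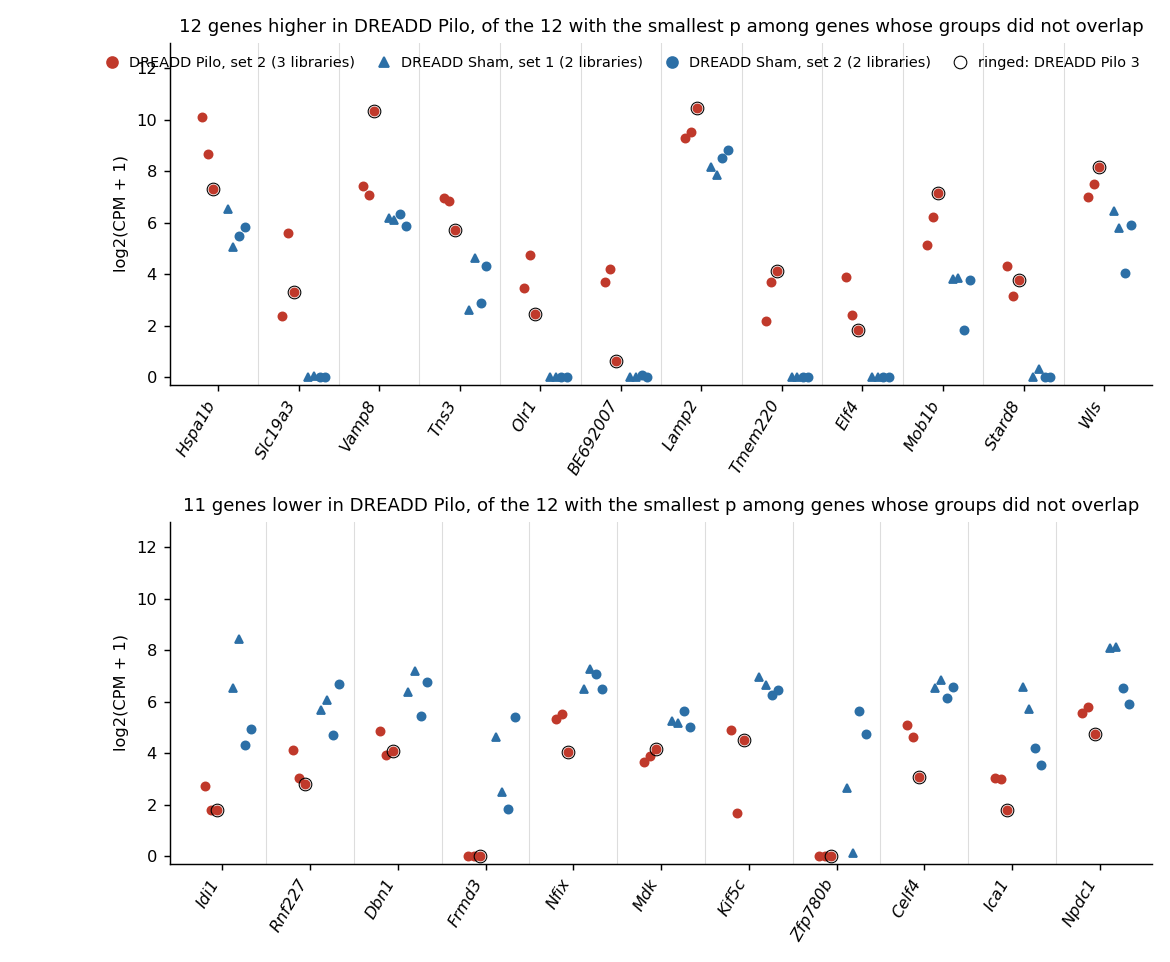
Level of the genes described above as having the smallest p among those whose groups did not overlap, higher (top) and lower (bottom) in DREADD Pilo, as log2(CPM + 1) per library. Red points are DREADD Pilo with DREADD Pilo 3 ringed, blue triangles DREADD Sham of set 1 and blue points DREADD Sham of set 2; Olr1 and Tmem220 are at 0 in all sham libraries, Frmd3 and Zfp780b in all DREADD Pilo libraries.

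Genes that neuronal activity switches on had medians near 0, and their counts moved with single libraries. Of 24 tested immediate early genes 14 were positive, with a median of 0.23 (-0.09 within set 2, -0.12 without DREADD Pilo 2). Fos stood at 873, 2155 and 458 CPM in DREADD Pilo and at 746, 920, 1595 and 1750 CPM in DREADD Sham, fully overlapping, with a log2 fold change of -0.11 ± 0.67. Arc, a synaptic plasticity gene, stood at 8.80, 18.8 and 1.23 CPM against 24.8, 12.7, 51.1 and 25.9 CPM, and Npas4, an activity-dependent transcription factor, at 15.7, 0 and 0 CPM against 0.713, 13.9, 20.4 and 44.6 CPM. Both overlapped over all libraries and lay below DREADD Sham 3 and 4 within set 2. Jund and Egr1 were the 2 of 24 members above all sham libraries (beside 4.39% of all genes), at 8.11, 13.8 and 22.5 CPM against 1.38, 6.39, 4.03 and 6.35 CPM for Jund and at 172, 155 and 153 CPM against 35.2, 101, 130 and 138 CPM for Egr1; both, like Fos, Arc and Npas4, were chosen after the values were seen. Without DREADD Pilo 3, 7 of 24 members lay above all sham libraries, beside 9.71% of all genes. Dusp1, a phosphatase that turns off MAP kinases, had the smallest p of the list, at 100, 156 and 531 CPM against 22.1, 77.8, 113 and 132 CPM, and the stress-responsive Atf3 stood at 810, 512 and 209 CPM against 200, 121, 362 and 239 CPM. Late activity-regulated genes had 10 positive and 14 negative members and a median of -0.16 (0.14 without DREADD Pilo 3). Bdnf, a neurotrophin on that list, stood at 40.4, 3.31 and 0 CPM against 87.2, 51.7, 0 and 69.6 CPM.

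The signalling route of the receptor itself showed no common direction. Of 26 tested genes of Gi signalling and GIRK channels 14 were positive and 12 negative, with a median of 0.03 (-0.74 without DREADD Pilo 2). Gnb1, a G protein beta subunit, was above all sham libraries at 59.6, 106 and 69.1 CPM against 30.4, 36.6, 51.7 and 54.5 CPM (0.86 ± 0.52). Gnb5, another beta subunit, was below all of them at 6.37, 4.75 and 7.25 CPM against 70.3, 65.4, 14.5 and 15.0 CPM (-2.75 ± 1.04). Neither passed the edgeR test, with adjusted p of 1 and 0.954.

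Rrm2 and Timp3, the 2 genes in the title of the series, both overlapped between the groups over all libraries. Rrm2, the small subunit of ribonucleotide reductase, which makes the deoxynucleotides for DNA synthesis (chromosome 12, 24708241 to 24714146), stood at 76.6, 0 and 0.892 CPM in DREADD Pilo and at 10.1, 3.89, 106 and 390 CPM in DREADD Sham. DREADD Pilo 1 was above 2 of the sham libraries and the other DREADD Pilo libraries were below all 4. The mean log2 CPM differed by -4.28, with p = 0.2 in an exact two-sided permutation test over 35 splits (adjusted 0.2 over the 2 genes; the smallest possible p is 0.0286). Its edgeR log2 fold change was -2.30 ± 1.82 (adjusted p = 1), from -0.63 without DREADD Sham 4 to -8.21 without DREADD Pilo 1. Within set 2 Rrm2 did not overlap: every DREADD Pilo library lay below DREADD Sham 3 and 4, as in 10.2% of all genes. The log2 fold change of Rrm2 was -3.22 ± 2.38 there. Timp3, an inhibitor of matrix metalloproteinases (chromosome 10, 86300372 to 86349506), stood at 63.5, 406 and 656 CPM against 51.0, 56.1, 270 and 86.0 CPM. DREADD Sham 3 and 4 lay above DREADD Pilo 1, and the difference in mean log2 CPM was 1.51 with p = 0.2 in the same exact test (adjusted 0.2). The edgeR log2 fold change of Timp3 was 1.70 ± 0.76 (adjusted p = 0.954) and 1.0 ± 0.80 without DREADD Pilo 3. Within set 2 it was 1.13 ± 1.09, and the groups overlapped there too.

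Around these 2 genes, most DNA replication genes had negative values, the direction of the mitosis list turned on 1 sham library, and the matrix list had a median near 0. Of 30 DNA replication and S phase genes 23 were negative with a median of -0.78, which was negative under all 17 alternatives, and Lig1, a DNA ligase named for not overlapping, was the 1 member below all sham libraries (beside 2.23% of all genes), at 1.44, 2.53 and 1.11 CPM against 6.46, 10.0, 6.07 and 5.57 CPM. Pcna, the sliding clamp of DNA polymerase, stood at 27.6, 37.0 and 15.9 CPM against 72.4, 99.9, 32.7 and 28.8 CPM. Of 30 mitosis genes 21 were negative with a median of -0.41, but without DREADD Sham 4 the median was 1.75 with 24 of 30 positive. It was 1.10 (23 of 30 positive) with limma voom, 3.54 (24 of 26 positive) with the replicate block and -1.28 (3 of 28 positive) within set 2. Mki67, the proliferation marker Ki-67, stood at 36.4, 0 and 0 CPM against 0.0246, 1.69, 0 and 49.0 CPM, which puts nearly all its counts in 1 library of each group. Of 21 neural stem cell genes 10 were positive and 11 negative, with a median of -0.13 (0.57 without DREADD Sham 4). The Notch targets Hes1 and Hes5 went apart: Hes1 stood at 9.25, 46.2 and 353 CPM against 4.87, 5.16, 18.1 and 16.5 CPM, and Hes5 at 4.18, 7.10 and 1.67 CPM against 3.61, 38.2, 47.4 and 17.6 CPM. Hes1 had a log2 fold change of 3.61 ± 1.22 with and 1.30 ± 1.23 without DREADD Pilo 3. Of 34 genes of the extracellular matrix and its proteases 21 were positive, with a median of 0.29. Timp2, a relative of Timp3, stood at 112, 81.5 and 270 CPM against 113, 37.3, 54.3 and 32.3 CPM, and the protease Adam10 at 63.9, 149 and 77.9 CPM against 44.2, 40.2, 44.2 and 67.4 CPM. Migration and axon guidance genes had a median of -0.56 (18 of 31 negative) and -0.01 within set 2.

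Markers of glia differed widely between single libraries. Summed over 15 microglial markers, DREADD Pilo 1 and 2 had 34381 and 16370 CPM, above all sham libraries (7430, 841, 5721 and 12995 CPM), whereas DREADD Pilo 3 had 245 CPM, the lowest of the 7. All 15 had a positive log2 fold change with a median of 1.16. It was 0.42 (10 of 15 positive) without DREADD Pilo 1 and 1.68 without DREADD Pilo 3, with 8 of 15 then above all sham libraries, beside 9.71% of all genes. Tyrobp, a microglial signalling adaptor, stood at 537, 730 and 13.9 CPM against 198, 15.9, 45.5 and 125 CPM, and Trem2, a microglial lipid receptor, at 749, 520 and 6.91 CPM against 101, 30.6, 94.2 and 267 CPM. B2m, the light chain of class I antigen presentation, which microglia also express, had the same shape at 4361, 4616 and 637 CPM against 1987, 342, 631 and 987 CPM. On its list 18 of 24 members were positive with a median of 0.40, and 12 of 24 with a median of -0.03 without DREADD Pilo 2. The 20 reactive glia genes had a median of 0.48 with 15 positive, and of -0.23 with 9 positive without DREADD Pilo 2.

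Choroid plexus and mitochondrial transcripts were by far the highest in DREADD Pilo 3. The 12 choroid plexus markers summed to 196350 CPM there, to 1419 and 1046 CPM in DREADD Pilo 1 and 2, to 17403 and 17539 CPM in DREADD Sham 1 and 2, and to 737 and 464 CPM in DREADD Sham 3 and 4. Ttr, the transthyretin gene that defines this tissue, stood at 768, 0.0601 and 150070 CPM against 13405, 13280, 302 and 227 CPM. The median of the list was 4.14 with DREADD Pilo 3 and -2.08 without it. Enpp2, which encodes autotaxin, stood at 476, 1041 and 29660 CPM against 3443, 3536, 405 and 231 CPM. It thus made up nearly all of the choroid plexus sum in DREADD Pilo 2 and a large part of it in DREADD Sham 3 and 4. Of 14 tested mitochondrially encoded genes 13 were positive with a median of 2.32, and the median was 0.12 without DREADD Pilo 3; mt-Nd6 stood at 509, 706 and 13879 CPM against 509, 405, 749 and 601 CPM. Nuclear genes of oxidative phosphorylation had a median of 0.02, 1.99 within set 2 and -1.49 without DREADD Pilo 3.

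The part that other cells or RNA quality play in the neuronal differences was not tested. Summed oligodendrocyte markers were 20089, 46608 and 566 CPM in DREADD Pilo and 21200 to 41915 CPM in DREADD Sham, with 7 of 13 members positive and a median of 0.08 (-1.57 without DREADD Pilo 2). The myelin gene Mbp stood at 5004, 8803 and 156 CPM against 6722, 4645, 19823 and 12939 CPM. Oligodendrocyte precursor markers summed to 1714, 1066 and 47.9 CPM against 427 to 990 CPM, with 7 of 8 positive, but 4 of 8 without DREADD Pilo 1. Pdgfra, which defines these precursors, stood at 202, 182 and 41.5 CPM against 146, 74.2, 398 and 298 CPM, and Gpr17 at 407, 163 and 0 CPM against 62.1, 115, 0.233 and 39.6 CPM. Astrocyte markers summed to 1693, 3744 and 1723 CPM against 2127 to 5111 CPM, with 11 of 14 negative and a median of -0.41, and 1 of them, Acsbg1 (15.2, 36.5 and 15.3 CPM against 55.4, 99.5, 57.8 and 66.4 CPM), did not overlap, beside 2.23% of all genes below all sham libraries. Of 10 pericyte and smooth muscle markers 9 were negative, but 4 of the 9 kept without DREADD Sham 4; Tagln, a smooth muscle actin-binding protein, stood at 8.80, 5.35 and 3.57 CPM against 28.5, 4.28, 275 and 132 CPM. Endothelial and blood cell markers ranged over 161 to 2392 and 165 to 6637 CPM in DREADD Pilo and over 38.1 to 1140 and 4.8 to 6966 CPM in DREADD Sham.

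**Figure D4:**
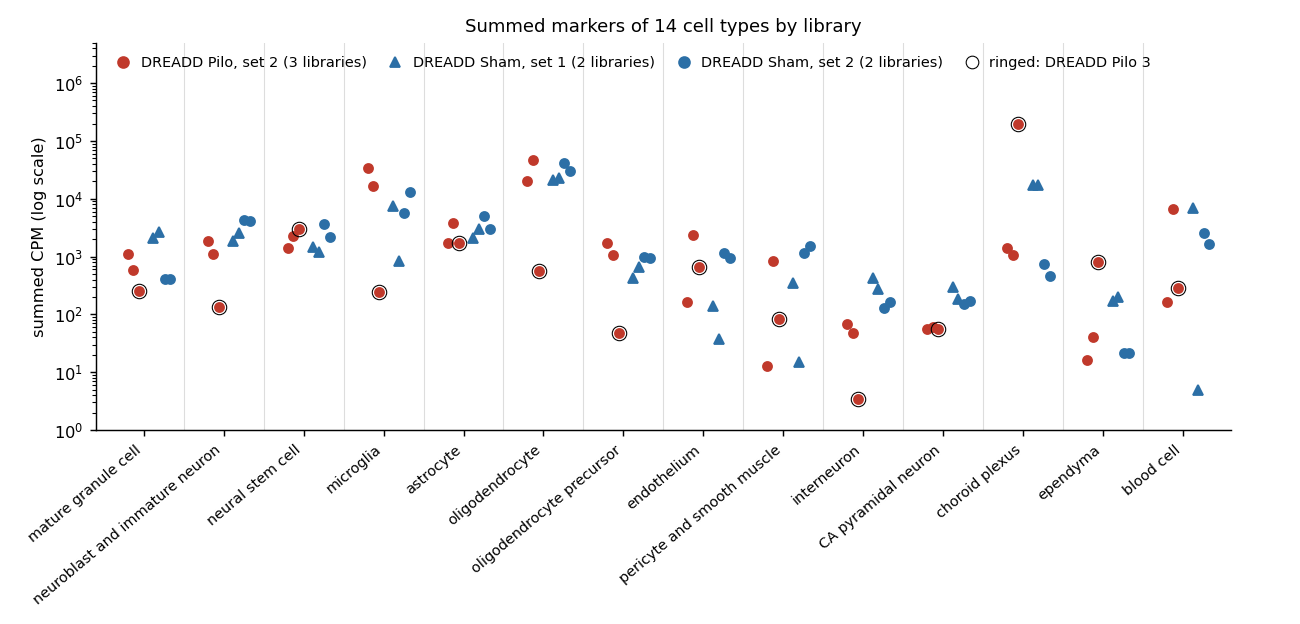
Summed CPM of the markers of 14 cell types in each DREADD library, on a log scale. Red points are DREADD Pilo with DREADD Pilo 3 ringed, blue triangles DREADD Sham of set 1 and blue points of set 2; DREADD Pilo 3 holds the highest choroid plexus sum (196350 CPM) and the lowest microglial sum (245 CPM), and the sums of interneuron and CA pyramidal markers do not overlap between the groups.

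The remaining metabolic and stress lists had medians between -0.50 and 0.31 over all libraries. Of 21 cholesterol synthesis genes 18 were negative, with a median of -0.50. Fdps, which follows Idi1 in that pathway, stood at 2.34, 4.45 and 8.58 CPM against 131, 216, 0.233 and 14.6 CPM, so DREADD Sham 3 was the lowest of all. Metallothioneins and glutathione transferases had a median of -0.31 (5 of 12 positive), of 0.89 within set 2 (9 of 11 positive) and of -1.46 without DREADD Pilo 3 (0 of 12 positive). Gstm1, a glutathione transferase, was the 1 member below all sham libraries (beside 2.23% of all genes), at 58.4, 183 and 157 CPM against 248, 707, 420 and 272 CPM (-1.63 ± 0.56, adjusted p = 0.954 by edgeR). Genes of p53 and the integrated stress response had a median of 0.31 (14 of 23 positive).

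The contrast between pilocarpine and sham in cells without the DREADD was used to ask whether the difference was another one there. The DREADD and CAG-GFP comparisons share no library, but the CAG-GFP sham libraries all belonged to set 1 and the DREADD Pilo libraries all to set 2. A dependence on the receptor and one on the library set thus cannot be fully told apart. The CAG-GFP comparison has no value within set 2. The test of the difference between them (interaction) called 0 of 18676 genes (0.0% called) by edgeR, with a smallest adjusted p of 0.194, and 2191 (11.7%) had an unadjusted p under 0.05. DESeq2 called 1456 genes for this difference, limma voom 37 and the fit with library set as a covariate 11. The CAG-GFP comparison alone called 45 genes (0.241%), and 15.4% had an unadjusted p under 0.05. The neuroblast list had a median of -1.72 in DREADD (-1.92 within set 2) and 1.89 in CAG-GFP cells. Over all genes the medians were 0.07 and 0.41 (58.6% of genes positive in CAG-GFP cells). Mature granule cell genes had -1.16 (1.17 within set 2) and 3.39. Mitosis genes had -0.41 in DREADD cells (1.75 without DREADD Sham 4) and 4.11 in CAG-GFP cells, and astrocyte markers -0.41 and -3.21. In CAG-GFP cells the medians of the cell type marker lists ran from -3.21 for astrocytes to 9.98 for blood cells. They were 7.08 for oligodendrocyte precursors, 5.32 for endothelium and 3.82 for oligodendrocytes, all larger than the 1.89 of the neuroblast list. The sizes of the list differences were not tested.

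All 6 genes with the smallest interaction p passed the test in CAG-GFP cells alone (adjusted p from 0.00220 to 0.0275 by edgeR). Cst3, the secreted protease inhibitor cystatin C, had 11815 ± 4252 CPM in DREADD Pilo and 5094 ± 1713 CPM in DREADD Sham (SD, n = 3 and 4). In CAG-GFP Pilo it had 11428 ± 4502 CPM, against 92985 ± 10626 CPM in the sham cells (n = 4 and 3). The interaction was 4.24 ± 0.70 (adjusted p = 0.194 by edgeR). Gstm1 had 133 ± 65.6 and 412 ± 211 CPM in DREADD cells and 160 ± 54.6 and 8927 ± 564 CPM in CAG-GFP cells (interaction 4.17 ± 0.75, adjusted p = 0.194 by edgeR). Naaa, a lysosomal amide hydrolase, had 56.6 ± 50.3 and 27.2 ± 8.62 CPM against 12.9 ± 5.50 and 209 ± 23.5 CPM. The phosphatase genes Dusp14 and Dusp26 and the sialidase gene Neu4 went the other way. Dusp14 had 36.6 ± 13.6 and 34.0 ± 23.1 CPM in DREADD Pilo and Sham and 172 ± 32.9 and 2.85 ± 1.84 CPM in the CAG-GFP groups (interaction -5.80 ± 1.03, adjusted p = 0.194 by edgeR). Dusp26 had 91.0 ± 78.3 and 131 ± 87.8 CPM against 98.8 ± 44.5 and 0.0165 ± 0.0285 CPM, and Neu4 222 ± 244 and 149 ± 55.3 CPM against 163 ± 112 and 0 CPM. In 5 of these 6 genes, Dusp14 being the exception, CAG-GFP Sham was the group that lay apart from the 3 others. Hspa1b had 240 ± 114 CPM in CAG-GFP Pilo and 7.49 ± 2.22 CPM in CAG-GFP Sham (log2 fold change 5.0 ± 0.82, adjusted p = 0.027 by edgeR), and its interaction was -1.69 ± 0.95 (adjusted p = 0.474 by edgeR). For Neurod1 the interaction was -9.77 ± 2.29 (adjusted p = 0.219), with 79.0 ± 75.8 and 0.770 ± 0.182 CPM in CAG-GFP Pilo and Sham, and for Timp3 it was 3.75 ± 1.08 (adjusted p = 0.323), both by edgeR.

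**Figure D5:**
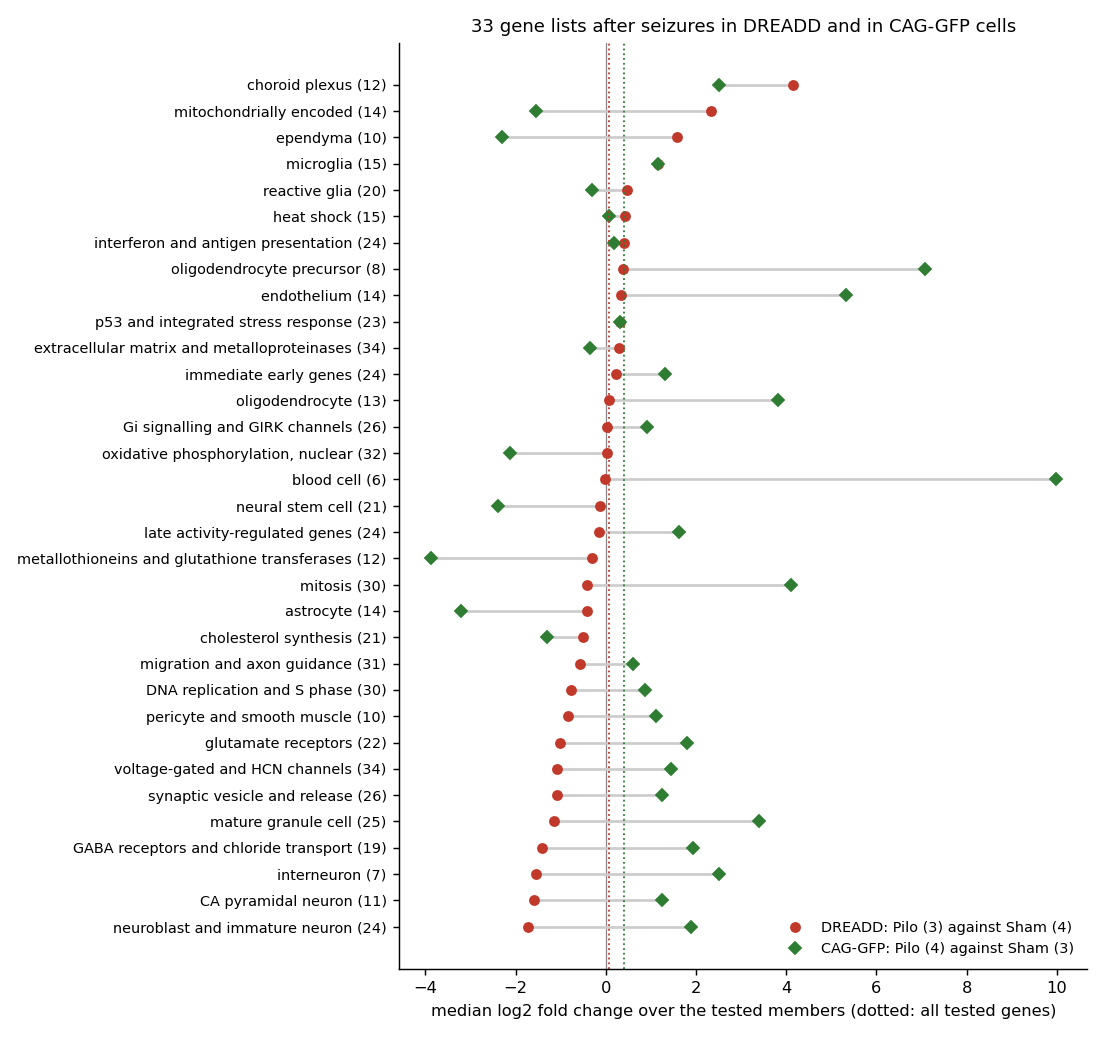
Median log2 fold change of pilocarpine against sham over the tested members of 33 gene lists, in DREADD cells (red points, 3 against 4 libraries) and in CAG-GFP cells (green diamonds, 4 against 3 libraries); dotted lines mark the median of all tested genes, 0.07 and 0.41. The neuroblast list lies at -1.72 in DREADD and 1.89 in CAG-GFP cells, and the mature granule cell list at -1.16 (1.17 within set 2) and 3.39. In CAG-GFP cells the marker lists range from -3.21 (astrocyte) to 9.98 (blood cell).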

How the data were processed

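Raw counts per gene were deposited for 14 libraries and 43346 identifiers, all of them mouse Ensembl identifiers; the values are whole numbers and carry no normalization by the authors. The submitters' processing notes name the build hg38, which does not match such identifiers, and the tools edgeR, R 4.1.1, Subread, featureCounts and Bowtie2. The sources used here do not give the strand setting or how multiply mapped reads were counted. Symbols came from GENCODE M21 on GRCm38 (42462 identifiers matched, 884 did not). Libraries were grouped by title. Genes were fitted in edgeR 4.0.16 (R 4.3.3) with TMM factors, filterByExpr and the quasi-likelihood F-test over all 14 libraries, with Benjamini-Hochberg adjustment at 0.05, which left 18676 genes. Each SE is the log2 fold change divided by the root of F. The fit was also run on simulated counts without a library set effect. Its outcome is not given here, and nothing on the power of the test is drawn from it. Rrm2 and Timp3 were compared by exact permutation of log2 CPM, computed with 2 as the prior count. All libraries of a group differed by more than counting noise. Counting intervals and floors of 3 counts cover counting error only, as the reads carry no molecular identifiers.

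Library sets were split at 1% of counts in pseudogenes. The named genes were Rrm2, Timp3 and Chrm4, then, as under 20 genes passed, the 12 smallest p in each direction among genes without overlap that averaged 5 CPM or more in the higher group and were neither pseudogenes nor predicted. Up to 3 members per list with the smallest p (not all are printed) and 6 genes for the interaction were added. Some genes that the rule picks are left out of the text. The members and the 33 gene lists were chosen with earlier results of these data known. Members that the filter removed are not counted as tested; Cyr61 and Lhfpl3 had no matching symbol. Alternatives were RLE size factors, no filter, DESeq2 1.42.0, limma voom 3.58.1, the 7 DREADD libraries alone, library set as covariate or set 2 alone, protein-coding nuclear genes, a replicate block, and leaving out each library. The list medians under each alternative, non-overlap counts in set 2 and without DREADD Pilo 3, and set 2 without DREADD Pilo 3 were added after seeing the data.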

Additional observations from a re-analysis of the deposited data

Results flagged for a closer look

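In DREADD Sham, the 1 group of this comparison with 4 libraries, 99 values (genes and marker sums) were screened for a library far from the other 3 by Dixon's test at its 95% value, which chance passes in about 1 of 20 groups. The screen found 9. For Mob1b, DREADD Sham 3 stood at 2.57 CPM against 12.9 to 13.5 CPM. For Dpysl3 it stood at 234 CPM against 97.1 to 109 CPM, for Slc12a2 at 251 CPM against 98.7 to 113 CPM, and for Bdnf at 0 CPM against 51.7 to 87.2 CPM. For Hsph1, DREADD Sham 4 stood at 69.1 CPM against 119 to 131 CPM. In 4 genes a single library held the few sham counts while the other 3 were at 0: Slc19a3 at 0.0325 CPM and Stard8 at 0.260 CPM in DREADD Sham 2, BE692007 at 0.0584 CPM in DREADD Sham 3, and Elf4 at 0.0246 CPM in DREADD Sham 1. With 3 equal values the ratio of Dixon's test is always at its highest, so the rate of about 1 in 20 does not apply to these 4 genes.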

How the results depend on the processing

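The count of called genes in DREADD Pilo against DREADD Sham was 0 in both directions under edgeR with RLE factors, no filter, the 7 libraries alone, set 2 alone with or without DREADD Pilo 3, coding genes only, a replicate block and each library left out (range 0 to 0), and under limma voom; it was 88 higher and 70 lower with DESeq2 and 2 higher with library set as covariate. The interaction count was 299 higher and 1157 lower with DESeq2, 33 and 4 with limma voom, 10 and 1 with library set as covariate, 1 and 2 without a filter, and ranged over 0 to 1 higher and 0 to 0 lower with libraries left out, the 1 being Cst3 without DREADD Pilo 3. The replicate block, with 0 genes called either way, rests on shared numbers only: same-numbered libraries correlated at -0.0476, -0.104 and -0.0514 in their deviations, so the numbers do not pair the samples.

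Of the 85 genes screened, 74 kept their sign under every alternative, as did 9 of 33 list medians and all 6 interaction genes. The log2 fold change took the opposite sign for Calb1 with the set as covariate (0.25), in set 2 (2.12) and in set 2 without DREADD Pilo 3 (2.27), for Slc17a7 in the latter 2 (0.51, 1.05), for Hspa8 in all 3 (1.04, 1.11, 0.98), and for Syp (0.10), Pcna (0.070) and mt-Nd6 (-0.15) in the last. Egr1 was -0.088 with the set as covariate. Ttr was -4.80 with limma voom and -4.19 with the replicate block, and ranged from -4.19 without DREADD Pilo 3 to 3.45 with other libraries left out. Enpp2 was -0.75 with the block and ranged from -1.37 without DREADD Pilo 3 to 2.99. Mki67 was 0.77 with the block, and leaving out single libraries took it from -11.22 (DREADD Pilo 1 absent) to 4.39 (DREADD Sham 4 absent); the same took Fos from -0.93 (DREADD Pilo 2 absent) to 0.25 (DREADD Pilo 3 absent). The cause was not tested.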
